A study of Mus musculus with 6 samples.

Results

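The liver turns methionine into S-adenosylmethionine (SAM), the methyl donor of most methylation reactions, and sends the homocysteine that is left either back to methionine or on to cysteine, a building block of glutathione. The genes described here are 10 enzymes of that route, namely Mat1a, Mat2a, Gnmt, Ahcy, Bhmt, Bhmt2, Cbs, Cth, Cdo1 and Got1, picked by gene symbol from the 17441 genes of the deposited expression table. All 10 were in the table and all 10 passed the filter on low counts, which 13160 genes passed. They were put together with differences between the study's groups in view, so their values in that comparison are given as a description, and no p-value is given for them.

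RNA-seq was done on 6 mouse livers. Of these, 3 are labelled as coming from mice with a whole-body knockout of Nek7 (titled iKO), a kinase of mitosis and of the NLRP3 inflammasome, and 3 as coming from wild-type mice (WT, titled Ctrl). All livers, WT included, were taken 10 days after tamoxifen injection. The labels name no strain, age, sex, Cre driver or hour of collection, and they do not say whether the livers came from separate litters, so a p-value measures only the spread between these samples. The series title places the study in acetaminophen liver injury and cell cycle control, and the labels of these livers name no acetaminophen. Library totals ran from 18139500 to 19912000 expected counts.

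Some facts of these libraries stand beside every value below. Nek7 itself was at 50.2, 32.8 and 31.0 CPM (expected counts scaled by TMM-normalized library size) in the livers labelled iKO and at 55.5, 40.5 and 36.4 CPM in WT livers, which overlap, and the log2 fold change of -0.22 was not called. In TPM Nek7 was at 13.8, 13.1 and 13.0 in the livers labelled iKO and at 21.3, 20.4 and 15.7 in WT livers, so all livers labelled iKO were lower, as they were for 25.8% of tested genes on that scale. The Y-linked genes Ddx3y and Kdm5d were read in all 3 libraries labelled iKO and in WT 1, and gave 0 counts in WT 2 and WT 3. Clock genes differed widely, with Dbp at 99.8 to 144 CPM in livers labelled iKO against 0.793 to 2.27 CPM in WT livers. Summed hepatocyte markers overlapped, at 100008 to 108143 CPM in livers labelled iKO and 98767 to 112746 CPM in WT livers, with 2 of 8 called, both higher (1 without any 1 of the 6 libraries). Alb made up most of each sum, at 66386 to 83264 CPM in livers labelled iKO and 76017 to 91157 CPM in WT livers. Of the 8 markers, 4 had all livers labelled iKO above all WT livers in CPM, as 19.8% of tested genes did. For 1 marker all were below, as for 19.2% of tested genes. By edgeR, 7.31% of all tested genes were called higher and 8.07% lower. Markers of stellate cells summed to 159 to 212 CPM in livers labelled iKO and 330 to 532 CPM in WT livers, with 6 of 10 lower at adjusted p under 0.05. Kupffer cell markers summed to 158 to 218 CPM in livers labelled iKO and 278 to 504 CPM in WT livers, with 6 of 8 lower (1 without WT 2, 2 without iKO 3, 3 without WT 3). Endothelial markers summed to 67.6 to 139 CPM in livers labelled iKO and 159 to 252 CPM in WT livers, with 3 of 8 lower (0 without WT 2 or without WT 3, 1 without iKO 1). Neutrophil markers summed to 10.8 to 32.3 CPM in livers labelled iKO and 26.5 to 121 CPM in WT livers, with 5 of 8 lower (1 without iKO 2 or without iKO 3, 2 without iKO 1, 3 without WT 3). Once Y-linked reads entered the fit, the lower calls among these lists were 3 stellate markers and 1 neutrophil marker. None of the markers of these cell types was at 0 in every liver of a group, and 0 of 6 cholangiocyte and 0 of 5 tested T and NK cell markers were called by edgeR or DESeq2 (1 cholangiocyte marker and 0 T and NK cell markers at an unadjusted p under 0.05), though Sox9 was called lower without iKO 3. In bulk tissue, fewer cells of a type and less RNA per cell cannot be told apart. Values from a fit with a term for Y-linked reads are given for the 10 genes, and the part of clock genes and of these cell types in the differences was not tested.

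Methionine adenosyltransferase makes SAM from methionine and ATP. MAT1A is the form of the adult hepatocyte, and MAT2A is the form of most other tissues and of growing or dedifferentiating liver. GNMT spends SAM on glycine and so keeps its ratio to S-adenosylhomocysteine in bounds, and AHCY splits S-adenosylhomocysteine into adenosine and homocysteine. BHMT returns homocysteine to methionine with betaine, and BHMT2 does so with S-methylmethionine. CBS and CTH carry homocysteine through cystathionine to cysteine, CDO1 oxidises cysteine to cysteine sulfinate, and GOT1, the cytosolic aspartate aminotransferase, can transaminate that product besides serving the malate-aspartate shuttle.

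Promoter sequence is shown for Got1 and Mat2a, which had the largest differences among the 10 genes, and for Bhmt and Bhmt2. The latter are neighbours on chromosome 13 whose log2 fold changes had opposite signs, neither of them called by edgeR. Each line gives the 250 bases before the annotated start, 5′ to 3′ on the gene's own strand. They come from RefSeq's GRCm38.p6 table, a build other than the mm9 of the expression table. Windows of 7 of the 10 genes were searched. Capitals mark matches on either strand to a set of short motifs. The CCAAT box was searched as its 5 letters. For the GC box the letters were GGGCGG. The CARE element of the amino acid stress response was searched as TGATGCAA. For the E-box of the core clock the letters were CACGTG. The D-box, bound by DBP, was searched as TTATGTAA, and the cyclic AMP element (CRE) as TGACGTCA. For the glucocorticoid receptor the core of its element, AGAACA, was used. The core of the antioxidant element was searched as TGACNNNGC. The Got1 window is chr19:43524606-43524855 on the minus strand, Mat2a chr6:72439557-72439806 minus, Bhmt chr13:93637759-93638008 minus and Bhmt2 chr13:93674303-93674552 minus.
Got1: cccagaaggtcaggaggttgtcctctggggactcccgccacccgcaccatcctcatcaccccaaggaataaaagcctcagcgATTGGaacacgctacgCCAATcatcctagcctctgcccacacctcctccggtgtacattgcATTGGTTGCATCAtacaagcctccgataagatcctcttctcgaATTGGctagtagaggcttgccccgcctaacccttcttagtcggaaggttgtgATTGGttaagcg
Mat2a: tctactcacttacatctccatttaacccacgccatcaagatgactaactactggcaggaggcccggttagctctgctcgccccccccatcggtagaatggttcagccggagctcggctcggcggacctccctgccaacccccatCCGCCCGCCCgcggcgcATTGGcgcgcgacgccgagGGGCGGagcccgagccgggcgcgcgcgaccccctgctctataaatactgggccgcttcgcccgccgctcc
Bhmt: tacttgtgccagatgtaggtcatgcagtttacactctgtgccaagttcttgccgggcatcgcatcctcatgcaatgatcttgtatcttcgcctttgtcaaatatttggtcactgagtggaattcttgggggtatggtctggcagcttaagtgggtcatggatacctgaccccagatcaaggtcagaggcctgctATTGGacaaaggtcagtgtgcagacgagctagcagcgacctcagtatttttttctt
Bhmt2: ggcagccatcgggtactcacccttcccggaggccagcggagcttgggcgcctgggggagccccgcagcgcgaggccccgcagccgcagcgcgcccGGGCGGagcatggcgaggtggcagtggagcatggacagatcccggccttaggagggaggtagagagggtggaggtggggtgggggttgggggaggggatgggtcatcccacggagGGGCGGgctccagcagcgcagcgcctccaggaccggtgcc

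The Got1 window held 5 CCAAT matches and 1 CARE match, which starts at position -102 from the start and lies next to the CCAAT match at -107 without overlapping it. CARE letters occurred in 0.818% of 27025 promoter windows of the same length, and CCAAT in 34.5%. The Mat2a window held 3 GC boxes, of which those at -106 and -102 overlap, and 1 CCAAT match at -89. A GC box was present in 32.9% of windows. The Bhmt and Bhmt2 windows shared no motif of this set, Bhmt with 1 CCAAT match and 48% G and C, Bhmt2 with 2 GC boxes and 74% G and C, where the median of all windows was 52%. E-box, D-box, CRE, glucocorticoid core and antioxidant core letters were in none of these 4 windows, against 6.05%, 0.862%, 1.62%, 16.2% and 10.1% of all windows. Among the other windows searched, that of Cbs held 1 E-box match, at -229. Those of Gnmt and Ahcy held none of these letters. Such matches describe letters and say nothing of what binds there.

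On the per-length scale of TPM (the deposited transcript share), the enzymes of the route differed widely in level. Together the 10 genes made up 1.06%, 1.37% and 1.16% of all TPM in the livers labelled iKO and 0.926%, 1.17% and 1.22% in WT livers, ranges that overlap. In the livers labelled iKO the order by mean TPM was Bhmt (3481 ± 794), Gnmt (2295 ± 496), Mat1a (1916 ± 462), Cdo1 (1779 ± 303), Ahcy (1149 ± 168), Got1 (474 ± 102), Cth (408 ± 110), Cbs (302 ± 49.1), Bhmt2 (122 ± 24.2) and Mat2a (57.8 ± 11.9) (SD, n = 3). In WT livers it was Bhmt (2509 ± 490), Gnmt (2496 ± 606), Cdo1 (2328 ± 549), Mat1a (1708 ± 685), Ahcy (821 ± 89.7), Cbs (468 ± 107), Cth (301 ± 41.6), Bhmt2 (206 ± 34.3), Got1 (190 ± 64.1) and Mat2a (32.2 ± 4.89) (SD, n = 3). In livers labelled iKO the neighbours Gnmt and Mat1a, Mat1a and Cdo1, Got1 and Cth, and Cth and Cbs had ranges that overlap. In WT livers the ranges of Bhmt, Gnmt, Cdo1 and Mat1a overlapped from each to the next, as did those of Cbs and Cth and of Bhmt2 and Got1. Got1 thus stood at position 6 in livers labelled iKO and at position 9 in WT livers, while Mat2a was lowest in both.

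**Figure D1:**
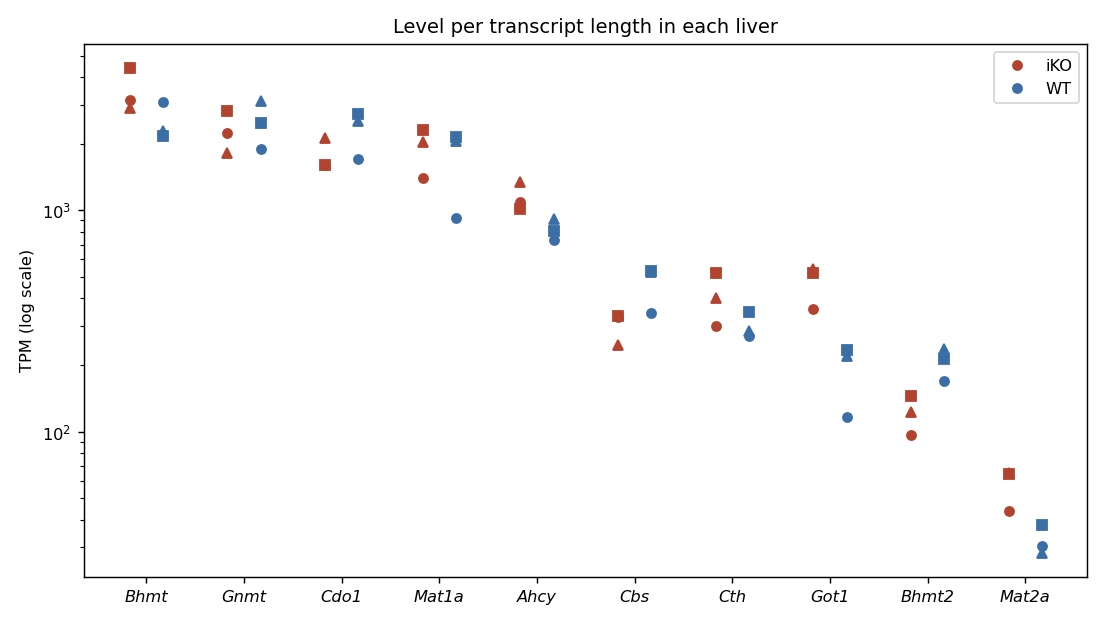
TPM (log axis) of the 10 genes in each liver, livers labelled iKO left of WT livers for each gene, with circle, square and triangle for livers 1, 2 and 3. Bhmt is at 2910 to 4387 TPM in livers labelled iKO and 2175 to 3072 TPM in WT livers, and Mat2a at 44.0 to 64.9 TPM in livers labelled iKO and 28.4 to 37.8 TPM in WT livers.

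In abundance rank, Bhmt stood between position 32 and 52 of the transcriptome in the livers labelled iKO and between 49 and 55 in WT livers. Gnmt stood between 50 and 74 in livers labelled iKO and between 43 and 70 in WT livers. Got1 stood between 276 and 361 in livers labelled iKO and between 570 and 911 in WT livers. Mat2a, the extrahepatic synthetase, stood between 1568 and 1790 in livers labelled iKO and between 2610 and 3023 in WT livers.

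Of the 10 genes, Got1, Mat2a and Cth were higher in the livers labelled iKO at adjusted p under 0.05 by edgeR's quasi-likelihood test, and none were called lower. In the fit over all genes 15.4% of 13160 genes passed in either direction, 7.31% of the 13160 being higher and 8.07% lower. As the genes were chosen with this contrast in view, nothing is read from 3 of 10 against that share. Of the 10 genes, 5 had all livers labelled iKO above all WT livers in CPM, as 19.8% of tested genes did, and 1 had all below, as 19.2% did. The median log2 fold change of the 10 was 0.59, and that of all tested genes -0.024. CPM here are normalized by TMM, which scales libraries to the bulk of genes. Without that step the median of all tested genes was -0.33 on log2(TPM + 0.1) and -0.20 on log2(FPKM + 0.1), and Gnmt was then at -0.11 in TPM against 0.21 in CPM, while the other 9 genes kept their sign. In TPM 5 of the 10 genes had all livers labelled iKO on 1 side, Mat2a, Ahcy and Got1 above (6.19% of tested genes) and Bhmt2 and Cbs below (25.8%).

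**Figure D2:**
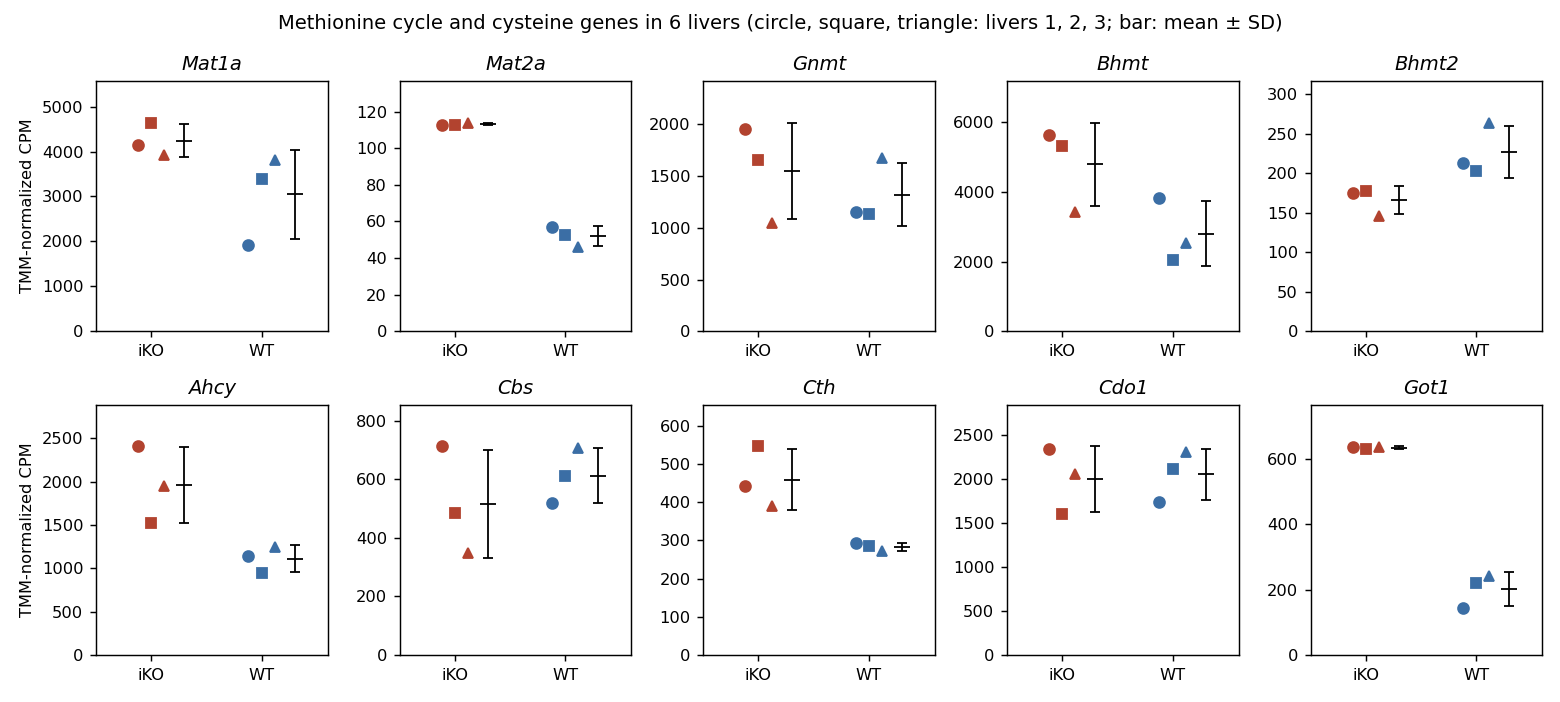
TMM-normalized CPM of each gene in the 3 livers labelled iKO (left) and the 3 WT livers (right), with mean ± SD as a bar beside the points. Got1 and Mat2a are nearly equal among the livers labelled iKO (629 to 636 and 113 to 114 CPM) and above every WT liver.

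Of the synthetase genes, Mat1a was far the more abundant in every liver. Mat1a (gene ID 11720) had 4138, 4641 and 3930 CPM in livers labelled iKO and 1915, 3395 and 3820 CPM in WT livers. All livers labelled iKO were above all WT livers, WT 3 came close to them, and WT 1 stood low. The log2 fold change was 0.48 (SE 0.29), and in TPM the groups overlapped.

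Mat2a (gene ID 232087) had 113, 113 and 114 CPM in livers labelled iKO and 57.2, 52.7 and 46.0 CPM in WT livers. The livers labelled iKO were nearly identical in CPM and lay well above each WT liver. In TPM the groups did not overlap either, though iKO 1 (44.0) lay close to WT 2 (37.8). The log2 fold change was 1.12 (SE 0.16). Its expected counts were not whole in any of the 6 libraries, as happens when reads that match more than 1 gene are divided between them. Its aligned transcript sequence is 74.4% identical to that of Mat1a over 1052 bases, and the counts of Mat1a were whole in all 6 libraries.

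Because both synthetases shared each library, their proportion within a liver was also read. Mat2a made up 3.04%, 2.71% and 3.09% of the summed Mat1a and Mat2a TPM in livers labelled iKO and 3.22%, 1.73% and 1.36% in WT livers. WT 1 had the highest share of all, so the groups overlapped. WT 1 reached it with a low Mat1a of 919 TPM and a Mat2a of 30.6 TPM, and the livers labelled iKO with a Mat2a of 44.0 to 64.9 TPM.

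GNMT and AHCY act once SAM is made. Gnmt (gene ID 14711), the glycine N-methyltransferase, had 1953, 1660 and 1045 CPM in livers labelled iKO and 1151, 1138 and 1671 CPM in WT livers. The groups overlapped throughout, and the log2 fold change of 0.23 (SE 0.29) became -0.11 once transcript length was corrected. Ahcy (gene ID 269378), the S-adenosylhomocysteine hydrolase, had 2405, 1524 and 1945 CPM in livers labelled iKO and 1136, 941 and 1250 CPM in WT livers. All livers labelled iKO were above all WT livers in CPM and in TPM, with a log2 fold change of 0.82 (SE 0.25). Its counts were not whole in any library, so its level is less certain.

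The paralogs that return homocysteine to methionine had log2 fold changes of opposite sign, and neither was called by edgeR. Bhmt (gene ID 12116) had 5625, 5326 and 3429 CPM in livers labelled iKO and 3833, 2051 and 2524 CPM in WT livers, where WT 1 lay above iKO 3. Its log2 fold change was 0.77 (SE 0.31). Bhmt2 (gene ID 64918) had 175, 178 and 146 CPM in livers labelled iKO and 213, 203 and 264 CPM in WT livers. All livers labelled iKO were below all WT livers in CPM and in TPM, and the log2 fold change was -0.45 (SE 0.19).

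Within each liver, Bhmt exceeded Bhmt2 by 32.4, 30.2 and 23.7 times in TPM in livers labelled iKO and by 18.2, 10.2 and 9.65 times in WT livers. The groups did not overlap, and among WT livers the ratio was highest in WT 1. Transcripts of the pair are 73.5% identical over 1116 aligned bases, and counts of both were not whole in all 6 libraries, so some reads may have been divided between them.

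In transsulfuration, the exit toward cysteine, the log2 fold changes of Cbs and Cth differed in sign, though Cbs was not called. Cbs (gene ID 12411), the entry enzyme, had 713, 487 and 349 CPM in livers labelled iKO and 521, 611 and 707 CPM in WT livers. The groups overlapped because iKO 1 was the highest of all, and the log2 fold change was -0.25 (SE 0.28). In TPM all livers labelled iKO, at 246 to 332, were below all WT livers, at 345 to 534. Without iKO 3 the log2 fold change of Cbs was 0.0034.

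Cth (gene ID 107869), which releases cysteine from cystathionine, had 443, 546 and 389 CPM in livers labelled iKO and 292, 284 and 271 CPM in WT livers. All livers labelled iKO were above the closely grouped WT livers, though in TPM iKO 1 (301) lay below WT 2 (348). The log2 fold change was 0.70 (SE 0.20). The call of Cth ended in each fit that dropped a library (log2 fold change 0.59 to 0.83), and of the 15 alternatives only RLE factors and DESeq2 kept it. Within a liver the ratio of Cbs to Cth TPM was 1.09, 0.636 and 0.611 in livers labelled iKO and 1.27, 1.53 and 1.85 in WT livers. Every WT liver had more Cbs than Cth, and of the livers labelled iKO only iKO 1 did.

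**Figure D3:**
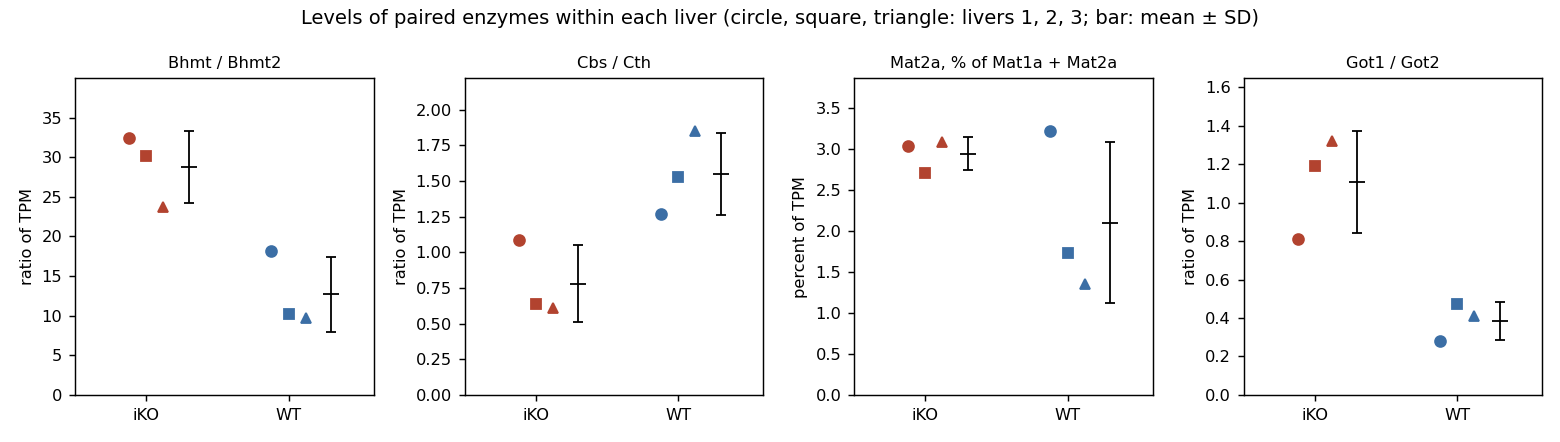
Ratios of TPM between paired enzymes within each liver, livers labelled iKO left and WT right, with mean ± SD as a bar. The ratios of Bhmt to Bhmt2 and of Got1 to Got2 are above, and that of Cbs to Cth below, every WT liver in all 3 livers labelled iKO, and the Mat2a share overlaps because WT 1 is at 3.22%.

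Cysteine use gave the smallest and the largest difference of the 10. Cdo1 (gene ID 12583), the cysteine dioxygenase, had 2337, 1599 and 2051 CPM in livers labelled iKO and 1737, 2108 and 2303 CPM in WT livers. The groups overlapped fully, and the log2 fold change was -0.038 (SE 0.24), a sign that turned when WT 2, WT 3 or iKO 2 was left out.

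Got1 (gene ID 14718) had 636, 629 and 636 CPM in livers labelled iKO and 144, 219 and 241 CPM in WT livers. In CPM the livers labelled iKO were nearly equal and lay far above every WT liver, of which WT 1 was lowest. In TPM they were less alike, at 358, 522 and 544, and still above the 116, 234 and 220 of WT livers. The log2 fold change was 1.65 (SE 0.24), or 3.15-fold. Its counts were whole in all 6 libraries. The ratio of Got1 to Got2, the mitochondrial aminotransferase, was 0.812, 1.19 and 1.32 in TPM in livers labelled iKO and 0.279, 0.472 and 0.408 in WT livers. Got2 itself had 910, 613 and 559 CPM in livers labelled iKO and 601, 540 and 688 CPM in WT livers, which overlap.

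The libraries with Y-linked reads hold WT 1 as their single WT liver. In the fit without WT 1, group and Y-linked reads therefore coincide, and the fit cannot tell them apart. Against WT 1 alone, the livers labelled iKO kept higher Got1 (629 to 636 against 144 CPM), Mat2a (113 to 114 against 57.2 CPM) and Mat1a (3930 to 4641 against 1915 CPM). With a term for Y-linked reads in the fit, the log2 fold change was 2.14 for Got1 (SE 0.33), 0.99 for Mat2a (SE 0.25), 1.15 for Mat1a (SE 0.38) and 0.32 for Bhmt (SE 0.42). Mat1a moved most under this term, which sets the livers labelled iKO against the low WT 1, and its log2 fold change without WT 1 was 0.23. Got1 too was lowest in WT 1 among WT livers, and its log2 fold change was 1.46 to 1.80 over the fits without 1 library. With the Y-linked term Cdo1 changed sign to 0.20 (SE 0.37). Got1 alone of the 10 then passed, where 1.40% of all tested genes did, and likewise in the libraries with Y-linked reads alone, where 1.05% did. DESeq2 called 5 of the 10, Got1, Mat2a, Cth, Ahcy and Bhmt, where it called 19.4% of all genes it tested. On log2(FPKM + 1) Got1 and Mat2a were higher, where 3.20% of genes were, and Bhmt2 was lower, where 7.07% were. Got1 and Mat2a were also the 2 calls with a replicate block (13.0% of all genes) and in the fits without iKO 1 (10.5%), iKO 2 (12.2%), iKO 3 (7.06%), WT 1 (13.7%), WT 2 (3.69%) and WT 3 (6.79%).

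**Figure D4:**
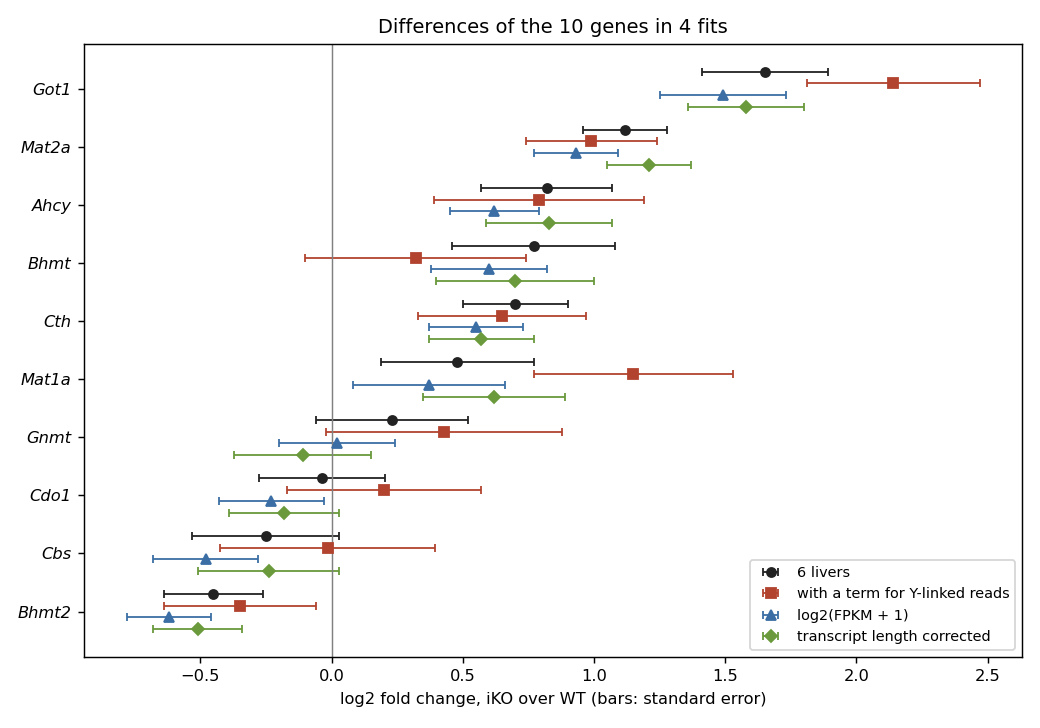
Log2 fold change (iKO over WT) of the 10 genes with standard errors in 4 fits, with all 6 livers, with a term for Y-linked reads, on log2(FPKM + 1) and with transcript length corrected. Got1 stays between 1.49 and 2.14 and Mat2a between 0.93 and 1.21, while the values of Gnmt and Cdo1 lie on both sides of 0.

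Fold changes in these libraries also followed transcript length. The quintile with the shortest transcripts had a median log2 fold change of 0.33, and that with the longest -0.25. Effective lengths of the 10 genes ran from 983 bases (Gnmt, the only one in the shortest quintile) to 3358 bases (Mat1a), and none fell in the longest quintile. With the correction for length, Mat2a was at 1.21, Got1 at 1.58 and Cth at 0.57 on the log2 scale.

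The other genes of the pathway came from lists set by role rather than by how they moved, though with earlier results of these data known. Of 91 such genes 86 were tested, 10 rose, 6 fell and 70 were not called, which is 18.6% called where 15.4% of all tested genes were. Their median log2 fold change was 0.14. On log2(FPKM + 1), which carries no TMM factors, the split was 4 higher and 9 lower. With the Y-linked term 3 were called, among them Kyat3 and Nnmt, both higher. No other pathway gene named below was called with that term. The counts by role below stand beside 7.31% of all tested genes called higher and 8.07% called lower by edgeR.

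**Figure D5:**
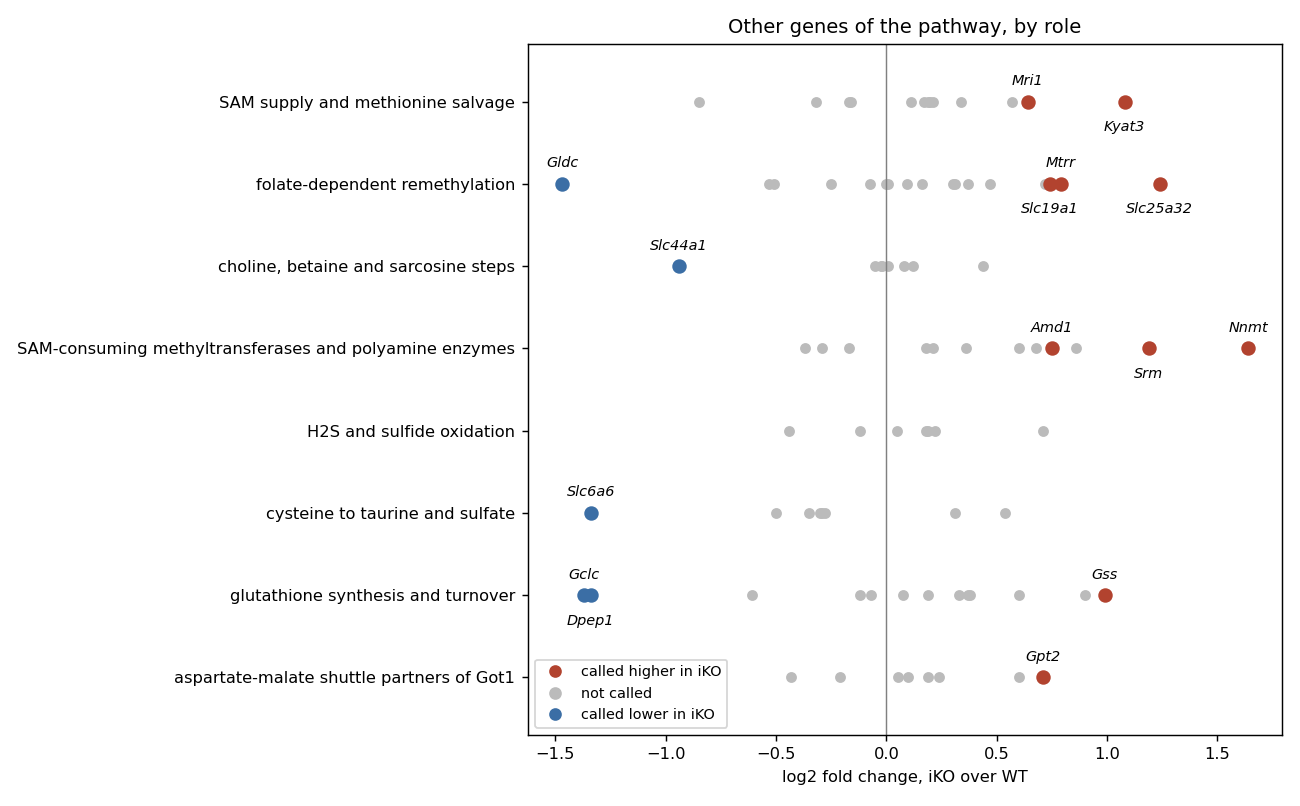
Log2 fold change (iKO over WT) of 85 tested pathway genes outside the 10, in 8 rows by role; each point is a gene, red where called higher and blue where called lower in livers labelled iKO, grey where not called. Gldc (-1.47) and Nnmt (1.64) are the outermost points, and the row of H2S and sulfide oxidation has no called gene.

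In the folate arm, which supplies methyl groups to methionine synthase, 3 of 18 tested genes rose and 2 fell. Gldc, the decarboxylase of the glycine cleavage system, had 91.5, 74.9 and 56.8 CPM in livers labelled iKO and 180, 223 and 217 CPM in WT livers, and fell by 1.47 (SE 0.22, adjusted p = 0.00361 by edgeR). The mitochondrial folate carrier Slc25a32 had 28.1, 30.0 and 28.8 CPM in livers labelled iKO and 14.3, 13.1 and 9.47 CPM in WT livers, so that the log2 fold change was 1.24 with an SE of 0.18 (edgeR adjusted p = 0.00354). Its counts were not whole in any library. Neither Gldc nor Slc25a32 was called with the Y-linked term. The calls of Mtrr, which reactivates methionine synthase (log2 fold change 0.79, SE 0.22), and of the folate carrier Slc19a1 (0.74, SE 0.22) each ended in all 6 fits without 1 library.

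Methionine synthase itself, Mtr, was scarce and was not called, at 5.00, 8.47 and 7.52 CPM in livers labelled iKO and 9.45, 9.06 and 6.52 CPM in WT livers. The betaine enzyme Bhmt was above Mtr by 2172 to 5330 times in TPM in livers labelled iKO and by 1082 to 1840 times in WT livers. The most abundant gene of the folate list in TPM was Aldh1l1, the cytosolic formyltetrahydrofolate dehydrogenase, at 1270 to 2235 CPM in livers labelled iKO and 1275 to 1808 CPM in WT livers.

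Of 12 enzymes that consume SAM or make polyamines, 3 rose and 0 fell, and with the Y-linked term 1 was called, Nnmt. Nnmt, which methylates nicotinamide with SAM, had 314, 202 and 258 CPM in livers labelled iKO and 70.8, 82.8 and 94.9 CPM in WT livers. The groups lay far apart, and the log2 fold change was 1.64 with an SE of 0.22 (edgeR adjusted p = 0.00261). Srm, the spermidine synthase, had 39.2, 32.0 and 48.6 CPM in livers labelled iKO and 18.1, 15.1 and 19.2 CPM in WT livers, so that the log2 fold change was 1.19 with an SE of 0.19 (edgeR adjusted p = 0.00522). Amd1, which decarboxylates SAM for polyamine synthesis, rose by 0.75 (SE 0.16, adjusted p = 0.0167 by edgeR), a call that ended without WT 2, WT 3 or iKO 3 (0.63 to 0.84 over the fits without 1 library, adjusted p up to 0.0698). Odc1, the ornithine decarboxylase of the same route, was at 48.3 to 52.2 CPM in livers labelled iKO and 44.4 to 72.1 CPM in WT livers and was not called. Inmt, the most abundant of the list per length, had a log2 fold change of -0.29 (SE 0.25) and was not called.

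SAM supply and methionine salvage held 2 called genes of 13, both higher. Kyat3, a transaminase and cysteine conjugate lyase, had 203, 197 and 195 CPM in livers labelled iKO and 73.7, 101 and 108 CPM in WT livers, so that the log2 fold change was 1.08 with an SE of 0.19 (edgeR adjusted p = 0.00861). Mri1, an isomerase of methionine salvage, rose by 0.64 (SE 0.17, adjusted p = 0.0347 by edgeR), and its call ended without WT 1, WT 2, iKO 1 or iKO 3 (adjusted p up to 0.153). Mat2b, the regulatory subunit of MAT2A, was at 17.1 to 22.9 CPM in livers labelled iKO and 21.2 to 27.7 CPM in WT livers, and Mettl16, the RNA methyltransferase that governs Mat2a splicing, was at 10.4 to 12.6 CPM in livers labelled iKO and 10.1 to 11.0 CPM in WT livers. Neither was called. Adk, which clears the adenosine that AHCY releases and was the most abundant gene of this list in TPM, was at 531 to 640 CPM in livers labelled iKO and 443 to 506 CPM in WT livers, without overlap and not called (log2 fold change 0.34, SE 0.20).

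Among 8 choline, betaine and sarcosine genes, Slc44a1, a choline transporter, was the single call, and it was not called with the Y-linked term. It had 36.4, 35.4 and 33.9 CPM in livers labelled iKO and 66.0, 72.6 and 64.1 CPM in WT livers, and fell by 0.94 on the log2 scale (SE 0.14, adjusted p = 0.00469 by edgeR). Sardh, which removes the methyl group of the sarcosine made by GNMT, overlapped at 659 to 1231 CPM in livers labelled iKO and 794 to 1028 CPM in WT livers. Chdh, which makes betaine from choline, overlapped at 129 to 179 CPM in livers labelled iKO and 144 to 164 CPM in WT livers.

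Below cysteine, 0 of 7 genes of H2S and sulfide oxidation were called by edgeR or DESeq2, and 0 had an unadjusted p under 0.05. Without WT 1, edgeR called Selenbp2 higher, in a fit where group and Y-linked reads coincide and cannot be told apart. Selenbp2 had 535, 337 and 255 CPM in livers labelled iKO and 618, 28.8 and 43.4 CPM in WT livers, where WT 1 was above all. Tst, the most abundant of them per length, was at 207 to 422 CPM in livers labelled iKO and 213 to 289 CPM in WT livers. Of 8 tested genes of taurine and sulfate metabolism, the taurine transporter gene Slc6a6 fell, at 48.7, 65.5 and 62.0 CPM in livers labelled iKO and 140, 155 and 153 CPM in WT livers (log2 fold change -1.34, SE 0.18, adjusted p = 0.00251 by edgeR). The Slc6a6 call ended with the Y-linked term. Csad, which makes hypotaurine from the product of CDO1, spread from 29.7 to 228 CPM in livers labelled iKO and from 53.9 to 107 CPM in WT livers. Baat, which joins taurine to bile acids, was at 225 to 267 CPM in livers labelled iKO and 181 to 233 CPM in WT livers, and was not called.

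Glutathione synthesis, the end of the route, had its steps on opposite sides. Gclc, the catalytic subunit of the rate-limiting ligase, had 168, 127 and 76.0 CPM in livers labelled iKO and 438, 241 and 277 CPM in WT livers, without overlap. Its log2 fold change was -1.37 with an SE of 0.33 (edgeR adjusted p = 0.0258), and the call ended in 5 of the 6 fits without 1 library, holding without iKO 1 (adjusted p up to 0.0740). Gss, the second enzyme, had 74.8, 91.6 and 113 CPM in livers labelled iKO and 47.2, 46.2 and 46.8 CPM in WT livers, so that the log2 fold change was 0.99 with an SE of 0.18 (edgeR adjusted p = 0.00961). The Gss call held in all 6 fits without 1 library (edgeR adjusted p up to 0.0494) but ended on log2(FPKM + 1). In TPM the groups overlapped for Gss, as iKO 1 (45.2) lay below WT 2 (51.9). With the Y-linked term neither Gclc nor Gss was called. The ratio of Gclc to Gss TPM was 1.35, 0.819 and 0.405 in livers labelled iKO and 5.45, 3.05 and 3.42 in WT livers. The regulatory subunit Gclm was not called, at 124 to 151 CPM in livers labelled iKO and 111 to 134 CPM in WT livers. Dpep1, which splits cysteinylglycine, fell near the limit of counting, at 0.519 to 0.799 CPM in livers labelled iKO and 1.38 to 1.82 CPM in WT livers (log2 fold change -1.34, SE 0.36, adjusted p = 0.0375 by edgeR, up to 0.183 without WT 2). These were the 3 calls of 13 tested genes. The cystine carrier Slc7a11 and Ggt1 were read too low to be tested.

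Around Got1, 1 of 8 partners of the malate-aspartate shuttle and of alanine exchange was called. This was Gpt2, the mitochondrial alanine aminotransferase, with 532, 495 and 509 CPM in livers labelled iKO and 294, 345 and 302 CPM in WT livers (log2 fold change 0.71, SE 0.19, adjusted p = 0.0341 by edgeR). Among the fits that dropped a library, the Gpt2 call held without iKO 1 alone, and the adjusted p reached 0.109. The Gpt2 call also ended with the Y-linked term. Mdh1 overlapped at 397 to 503 CPM in livers labelled iKO and 383 to 474 CPM in WT livers.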

How the data were processed

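The 10 genes and the lists of related genes were chosen with earlier results of these data known. RNA was taken from 6 frozen livers with Trizol, per the labels' protocols. The submitters' processing notes name mm9, RSEM 1.2.12, HISAT2 2.0.4 and Bowtie2 2.2.5, without saying what each did, and no source used here gives the strand setting. The authors deposited expected counts, estimated by gene and not all whole (64.9% to 68.3% whole within 0.001). The deposited FPKM and TPM values are scaled by the authors for transcript length and library size. Expected counts were rounded and tested with edgeR 4.0.16 in R 4.3.3 (filterByExpr, TMM, robust quasi-likelihood F test, Benjamini-Hochberg over 13160 genes, called under 0.05). TMM factors ran from 0.780 to 1.18. Each SE is the fold change (log2) divided by the square root of F. Counting error is small at these depths except near 1 CPM. Alternatives were RLE factors, no filter beyond 1 count, DESeq2 1.42.0, limma 3.58.1 on log2(FPKM + pseudocount) with pseudocounts of 1 and 0.1, fits without each library in turn, the replicate number as a block, a term for Y-linked reads (Ddx3y plus Kdm5d over 10 expected counts), the libraries with such reads alone, and an offset from the lowess trend (span 0.3) over effective length. The fit was tested on simulated data. Named genes were the 10, Nek7, every called pathway gene (save 1 that is counted but not reported here) and the most abundant gene of each list; Mat2b, Mettl16, Mtr, Odc1, Chdh, Csad, Gclm, Slc7a11, Ggt1, Mdh1, Dbp and the zonation genes of the closing section were added after their values were seen. Motifs, transcript identity (blastn 2.17.0) and promoters used the reference tables.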

Additional observations from a re-analysis of the deposited data

How the results depend on the processing

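Calls over all genes numbered 2024 (962 higher, 1062 lower). They were 184 with the Y-linked term and 143 in the libraries with Y-linked reads alone, and from 491 (without WT 2) to 1840 (without WT 1) when 1 library was left out, 908 without WT 3 and 946 without iKO 3; on log2(FPKM + 1) the 1352 calls split into 421 higher and 931 lower. Of the 10 genes 3 were called, against 5 by DESeq2 (with Ahcy and Bhmt), 1 with the Y-linked term, 1 in the libraries with such reads alone and 2 in every fit without 1 library. On log2(FPKM + 1) they were 2 higher and 1 lower (Bhmt2). Of the other pathway genes 16 were called, against 3 with the Y-linked term, 1 in the libraries with such reads alone, and 9 (without WT 2) to 16 (without iKO 1) without 1 library, 10 without WT 3 and 10 without iKO 3. Got1 passed in all 15 alternatives and Mat2a in 13. Signs differed for Gnmt with the length correction (-0.11), Cdo1 with the Y-linked term (0.20), in libraries holding such reads (0.21) and in fits without 1 library (-0.16 to 0.13), and Cbs in such fits (-0.55 to 0.0034); the cause was not tested. The replicate numbers did not pair the livers, as same-numbered deviations correlated at 0.21, 0.22 and 0.05; with a replicate block 1710 genes, 2 of the 10 and 13 other pathway genes were called. The WT arm of the libraries with Y-linked reads is 1 liver, assumed to vary like the others.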

Other observations

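Zonation genes describe the lobule in which these enzymes act. Of 8 periportal genes 3 rose and 0 fell by edgeR, where 15.4% of all tested genes were called. Pck1, the entry enzyme of gluconeogenesis, had 3098, 4200 and 3306 CPM in livers labelled iKO and 833, 1062 and 779 CPM in WT livers, a log2 fold change of 1.99 (SE 0.25, edgeR adjusted p = 0.00218). Sds, the serine dehydratase, had 581, 403 and 482 CPM in livers labelled iKO and 96.0, 181 and 194 CPM in WT livers, a log2 fold change of 1.64 (SE 0.29, edgeR adjusted p = 0.00830). Asl, of the urea cycle, rose by 1.15 on the log2 scale (SE 0.24, edgeR adjusted p = 0.0155), and its call ended in 1 of the 6 fits without 1 library (adjusted p up to 0.0804). Cps1, also periportal, was at 2221 to 3266 CPM in livers labelled iKO and 3309 to 3625 CPM in WT livers and was not called. Hal, of the same list, was at 154 to 344 CPM in livers labelled iKO and 330 to 407 CPM in WT livers. Its log2 fold change was -0.78 (SE 0.31), not called with all 6 libraries but called lower without iKO 1 and on log2(FPKM + 1). With the Y-linked term Sds alone of the 8 was called.

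Of 8 pericentral genes, Slc1a2, a glutamate carrier, rose and Axin2, a Wnt target, fell. Axin2 had 4.26, 6.70 and 3.63 CPM in livers labelled iKO and 12.5, 11.5 and 13.7 CPM in WT livers, a log2 fold change of -1.37 (SE 0.24, edgeR adjusted p = 0.00861). Glul and Cyp2e1 overlapped between the groups. With the Y-linked term Axin2 was at -1.36 (edgeR adjusted p = 0.0938) and Slc1a2 at 1.19 (edgeR adjusted p = 0.0982), and the call of Slc1a2 also ended in 3 of the 6 fits without 1 library.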
